A study of Rattus norvegicus with 9 samples.

Results

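Collagen leaves the cell only after a set of enzymes and chaperones of the endoplasmic reticulum has modified and folded its chains. The values below describe 10 genes of that set in cultured cardiac fibroblasts of the rat, the cells that lay down most of the heart's collagen. They are the 3 prolyl 4-hydroxylase alpha subunits P4ha1, P4ha2 and P4ha3, their shared beta subunit P4hb, the 3 lysyl hydroxylases Plod1, Plod2 and Plod3, the collagen chaperone Serpinh1, the prolyl 3-hydroxylase partner Crtap, and Pcolce, a secreted enhancer of procollagen processing. The members were named by function and read by gene symbol among the 17337 genes of the count table. All 10 were found, and 9 had enough counts for testing, the exception being Crtap.

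RNA sequencing covered 9 libraries of cells from Sprague Dawley rats, 3 for each age. The fetal cells were isolated at embryonic day 18, those called neonatal at postnatal day 1, and the adult ones at 7 weeks of age. All groups were passage 0 cultures grown to confluence on plastic in medium with 10% serum and 0.1 mM ascorbic acid, the cofactor that the hydroxylases need, so no group lacked it. The labels name no sorting step and do not say whether hearts were pooled, nor whether replicates came from separate animals or cultures, so p-values measure the spread among these libraries, which may be technical. Each flask was measured as a whole, and a lower level from fewer cells of a type and one from less RNA per cell cannot be told apart.

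As background, prolyl 4-hydroxylase is a tetramer of paired alpha and beta subunits that hydroxylates proline in the collagen chain, which makes the triple helix stable at body temperature. Lysyl hydroxylases modify lysines that later carry sugars or form crosslinks, with Plod1 acting on the helical region and Plod2 on the telopeptides. The chaperone encoded by Serpinh1 binds the finished helix on its way out of the endoplasmic reticulum, and outside the cell the propeptides are cut off so that fibrils can form. In the heart these steps set how much fibrillar collagen fibroblasts can deposit and how it is crosslinked.

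Promoter sequences of 5 members are shown first: P4ha2 rose with age, P4ha1 peaked in neonatal cells, Serpinh1 fell in adult cells, and Plod1 and Pcolce were both low in fetal cells. Each runs 5′ to 3′ over the 250 bases upstream of the gene's start, with positions on the RefSeq assembly GRCr8, while all other coordinates below are those of the count table's annotation, on rn6. Capitals in the first 4 mark the hypoxia response core, GCGTG or ACGTG, on either strand (read as CACGC or CACGT on the other). Capitals in Serpinh1 mark GAANNTTC, the paired core of a heat shock element, a motif that was added after this sequence had been seen.
P4ha1, chr20:27844796-27845045, plus strand: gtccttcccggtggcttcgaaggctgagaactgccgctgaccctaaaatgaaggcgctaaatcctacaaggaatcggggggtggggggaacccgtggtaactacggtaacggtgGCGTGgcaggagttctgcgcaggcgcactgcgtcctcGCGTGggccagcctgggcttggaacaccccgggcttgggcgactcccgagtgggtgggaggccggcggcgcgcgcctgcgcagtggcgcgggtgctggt
P4ha2, chr10:38743644-38743893, plus strand: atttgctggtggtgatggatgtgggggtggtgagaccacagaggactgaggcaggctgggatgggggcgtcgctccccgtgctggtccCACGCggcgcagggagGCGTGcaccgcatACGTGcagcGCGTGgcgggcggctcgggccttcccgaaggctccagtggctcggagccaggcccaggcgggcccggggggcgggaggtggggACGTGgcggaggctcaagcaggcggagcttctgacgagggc
Plod1, chr5:163650738-163650987, minus strand: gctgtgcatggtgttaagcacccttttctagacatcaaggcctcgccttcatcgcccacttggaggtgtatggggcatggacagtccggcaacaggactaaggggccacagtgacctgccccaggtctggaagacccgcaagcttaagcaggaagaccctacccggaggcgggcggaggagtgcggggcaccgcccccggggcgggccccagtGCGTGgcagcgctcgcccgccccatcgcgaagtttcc
Pcolce, chr12:24720722-24720971, plus strand: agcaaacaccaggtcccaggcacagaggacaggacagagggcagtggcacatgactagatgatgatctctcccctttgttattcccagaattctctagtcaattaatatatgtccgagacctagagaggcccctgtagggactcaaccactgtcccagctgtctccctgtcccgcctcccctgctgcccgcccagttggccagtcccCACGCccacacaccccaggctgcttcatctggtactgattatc
Serpinh1, chr1:163062977-163063226, minus strand: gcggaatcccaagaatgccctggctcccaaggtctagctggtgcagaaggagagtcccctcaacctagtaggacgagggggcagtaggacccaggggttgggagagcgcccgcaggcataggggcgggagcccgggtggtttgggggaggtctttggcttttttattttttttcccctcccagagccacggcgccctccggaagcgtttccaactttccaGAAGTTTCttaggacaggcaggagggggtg

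Library totals ran from 13392825 to 22850491 assigned counts, and a tested member had between 1205 and 97740 counts in a library. Levels are given as counts per 1000000 assigned counts (CPM) after TMM scaling, and means are ± SD with n = 3 libraries. A change was called where the adjusted p of edgeR's quasi-likelihood test over all 11337 tested genes was under 0.05. Fetal replicate 3 stood apart: it was the lowest fetal library for 9 of 9 tested members, at 51.2% (Pcolce) to 83.2% (P4ha2) of the mean of fetal replicates 1 and 2. The summed CPM of 10 fibroblast markers was 23654 in that library and 47658 and 50437 in the other fetal libraries. Most of each sum was Col1a1 and Col3a1 (14800 and 7294 CPM in fetal replicate 3). In that library 6 lung epithelial markers summed to 116 CPM, against 2.16 and 1.81 CPM in the others. The part of either in the members' levels was not tested. A member's value is therefore also given without fetal replicate 3 where the call changed or a called value moved by over 1.5 times. The same holds for counts of the gene lists below that changed.

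The prolyl 4-hydroxylase alpha subunits moved apart with age: P4ha2 rose at each step, P4ha1 peaked in neonatal cells, and P4ha3 was lower in adult cells than at the earlier ages. P4ha2 (chr10:39435227-39464134, plus strand) stood at 157, 154 and 129 CPM in the fetal libraries, 207, 211 and 217 CPM in the neonatal libraries and 436, 327 and 315 CPM in the adult libraries. No library of one age overlapped another, and adult replicate 1 was the highest of all. The level was 1.44-fold higher in neonatal than in fetal cells (log2 fold change 0.53, SE 0.13, edgeR adjusted p = 0.0113). It was 1.70-fold higher again in adult than in neonatal cells (log2 fold change 0.76, SE 0.13, edgeR adjusted p = 0.000585), and 2.45-fold higher in adult than in fetal cells (log2 fold change 1.29, SE 0.13, edgeR adjusted p = 1.57e-05). P4ha2 was the only member called in the same direction in all 3 comparisons.

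P4ha1 (chr20:28920616-28971968, plus strand), the most abundant of the alpha subunits per exon length, was counted at 699.6, 723 and 451 CPM in the fetal libraries, 881, 890.4 and 874 CPM in the neonatal libraries and 426, 511 and 526 CPM in the adult libraries. The neonatal libraries lay close together and above every other library, while fetal replicate 3 fell within the adult range. P4ha1 rose from fetal to neonatal cells (log2 fold change 0.50, SE 0.16, edgeR adjusted p = 0.0404) and fell from neonatal to adult cells (log2 fold change -0.85, SE 0.17, edgeR adjusted p = 0.00150). The difference of these steps, the second minus the first, was itself past the threshold (-1.35 on the log2 scale, SE 0.28, edgeR adjusted p = 0.00451). Higher expression in neonatal cells than at both other ages was called for 4.53% of all tested genes (the reverse for 4.01%), and P4ha1 was the only member among them. The fetal to neonatal call was lost in 8 of 16 alternatives, with adjusted p up to 0.105, among them those without neonatal replicate 1, 2 or 3 and without adult replicate 2 or 3. The rise was smaller without fetal replicate 3, at 0.31 (adjusted p = 0.01003). The adult to fetal difference (log2 fold change -0.36, edgeR adjusted p = 0.0779) was called without fetal replicate 3 (-0.55, adjusted p = 7.47e-05).

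P4ha3 (chr1:165295847-165330322, plus strand), the least characterised alpha subunit, was at 197, 191 and 139.7 CPM in the fetal libraries, 149, 151 and 146 CPM in the neonatal libraries and 92.2, 102.3 and 90.3 CPM in the adult libraries. Adult libraries were below all others, and fetal replicate 3 was the only fetal library below the neonatal ones. The adult level was 0.639 times the neonatal one (log2 fold change -0.65, SE 0.12, edgeR adjusted p = 0.00119) and 0.540 times the fetal one (log2 fold change -0.89, SE 0.12, edgeR adjusted p = 0.000124). Neonatal and fetal cells did not pass the test (log2 fold change -0.24, edgeR adjusted p = 0.137), but did when fetal replicate 3 was left out (-0.38, adjusted p = 0.000530).

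P4hb (chr10:109736459-109748070, minus strand) encodes protein disulfide isomerase, which holds the alpha subunits soluble and also folds other secreted proteins. It was the steadiest member, at 2435, 2444 and 1880.3 CPM in the fetal libraries, 2387, 2439 and 2467 CPM in the neonatal libraries and 2372, 2187 and 2135 CPM in the adult libraries. Fetal libraries overlapped those of both later ages, and the adult libraries lay just below the neonatal ones. No pair of ages passed the test, with edgeR adjusted p of 0.460 for neonatal against fetal, 0.916 for adult against fetal and 0.350 for adult against neonatal cells. A small fall from neonatal to adult cells was called only without fetal replicate 3 (-0.13, edgeR adjusted p = 0.0425). Beta subunit RNA per exon length exceeded the 3 alpha subunits together at every age, at 876, 945 and 868 CPM per kb of exon in fetal, neonatal and adult cells.

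**Figure D1:**
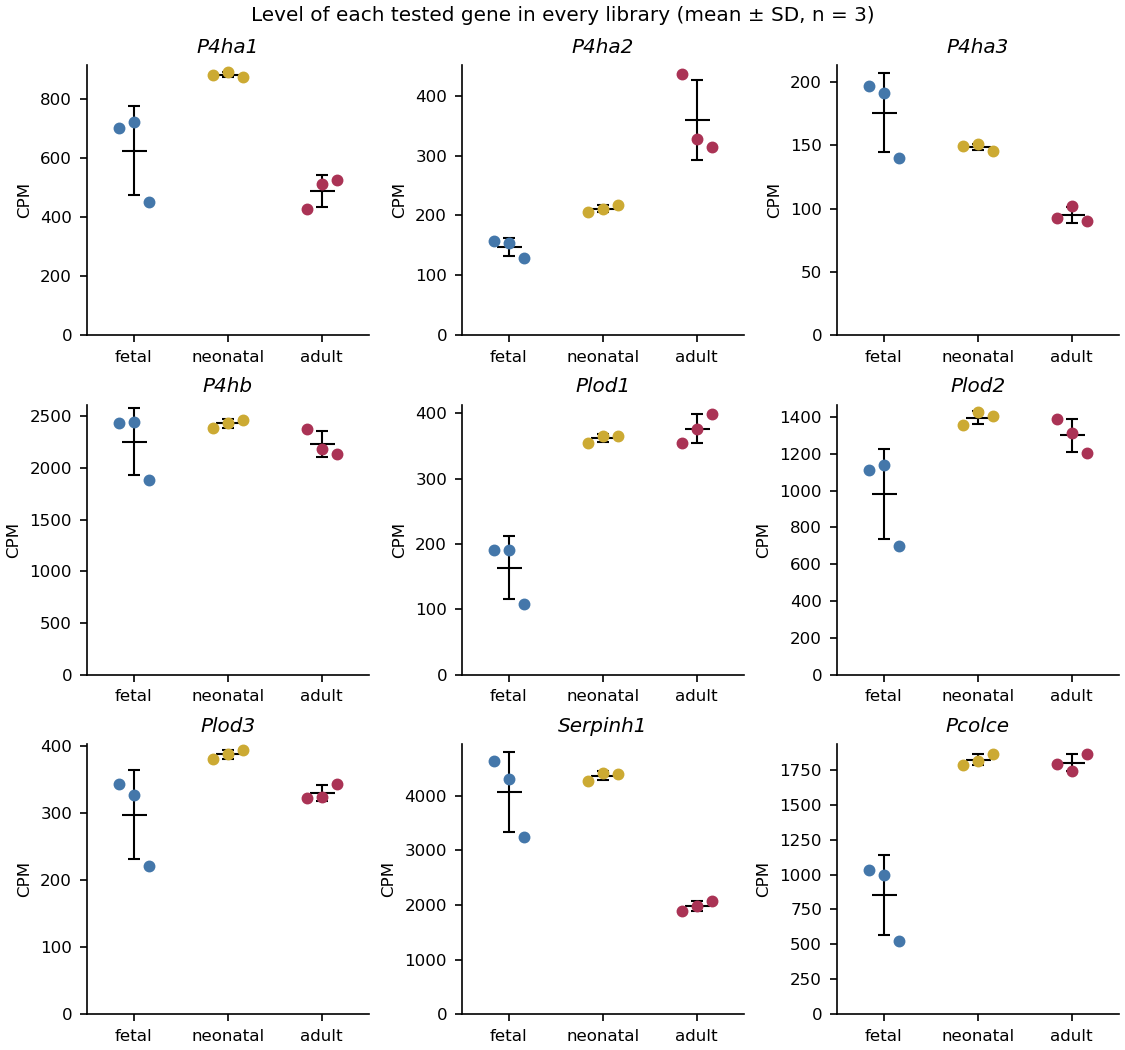
TMM-scaled CPM of the 9 tested members in each library (points), with mean ± SD for each age (n = 3 libraries), on linear axes from 0. P4ha2 climbs at each age, Serpinh1 drops to 1983 ± 94.8 CPM in adult cells, and fetal replicate 3 is the lowest fetal point for every member.

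The balance between alpha subunits shifted as these genes moved apart. Each subunit's share of the summed P4ha1, P4ha2 and P4ha3 level, in CPM per kb of exon, was taken within each library, which removes any scaling between libraries. P4ha2 made up 13.1, 12.7 and 15.9% in the fetal, 15.01, 15.1 and 15.8% in the neonatal and 42.4, 31.8 and 31.0% in the adult libraries. All adult shares were above all earlier ones, and the mean was 35.1 ± 6.32% in adult against 15.3 ± 0.433% in neonatal cells. P4ha1 supplied 63.1 ± 2.56% of the alpha subunit level in fetal, 69.7 ± 0.251% in neonatal and 52.0 ± 6.04% in adult cells. It remained the leading subunit in all 9 libraries, though by little in adult replicate 1, where it held 45.1% against 42.4% for P4ha2. P4ha3 held 23.0 ± 0.926% at the fetal, 15.02 ± 0.183% at the neonatal and 12.9 ± 0.821% at the adult age, so that P4ha2 and P4ha3 exchanged places between the fetal and the adult cells.

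Of the lysyl hydroxylases, Plod1 and Plod2 were lower in fetal cells than at both later ages, Plod1 by the most, and Plod3 passed the test in no comparison. Plod1 (chr5:164720629-164747071, minus strand) had 191, 191 and 108 CPM in the fetal libraries, 354, 366 and 365 CPM in the neonatal libraries and 354, 376 and 398 CPM in the adult libraries. Fetal libraries lay below every other library, and neonatal and adult libraries overlapped. The neonatal level was 2.21-fold the fetal one (log2 fold change 1.14, SE 0.19, edgeR adjusted p = 0.00206), and the adult level was 2.30-fold the fetal one (log2 fold change 1.20, SE 0.19, edgeR adjusted p = 0.000350). From neonatal to adult cells the difference was 0.057 on the log2 scale (SE 0.18, edgeR adjusted p = 0.804). Without fetal replicate 3 the neonatal to fetal difference was 0.92 and still called (adjusted p = 7.06e-07).

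Plod2 (chr8:99977334-100059735, plus strand), the lysyl hydroxylase of the telopeptides and the source of the crosslinks found in fibrotic tissue, was at 1111, 1139 and 702 CPM in the fetal libraries, 1359, 1426 and 1404 CPM in the neonatal libraries and 1387, 1311 and 1207 CPM in the adult libraries. All fetal libraries were below all later ones. It rose from fetal to neonatal cells (log2 fold change 0.50, SE 0.16, edgeR adjusted p = 0.0375) and stood above the fetal level in adult cells too (log2 fold change 0.40, SE 0.16, edgeR adjusted p = 0.0489), both close to the threshold. Without fetal replicate 3 these differences were 0.31 and 0.21 on the log2 scale (adjusted p = 0.00252 and 0.0114). The first call was lost in 6 of 16 alternatives, among them those without any 1 neonatal library or without adult replicate 2 (adjusted p up to 0.100). The second was lost in 9 of 16, among them those without any 1 neonatal or adult library (adjusted p up to 0.119).

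Plod3 (chr12:22716421-22726982, minus strand), which besides hydroxylating lysine adds glucose to galactosyl-hydroxylysine, had 344, 327 and 221 CPM in the fetal libraries, 381, 388 and 393 CPM in the neonatal libraries and 322, 324 and 344 CPM in the adult libraries. Neonatal libraries were above all others, and no pair of ages passed the test (edgeR adjusted p = 0.0604 for neonatal against fetal, 0.179 for adult against neonatal and 0.359 for adult against fetal cells). Without fetal replicate 3 it was called higher in neonatal cells than in fetal ones (0.21, adjusted p = 0.00839) and than in adult ones (adult minus neonatal -0.24, adjusted p = 0.000828). The first of these was also called without fetal replicate 1 (adjusted p = 0.0318), by DESeq2 (adjusted p = 0.0421) and by limma voom (adjusted p = 0.0496). The second was also called with only neonatal and adult libraries in the fit (-0.24, adjusted p = 0.00193). Its exons share 250 bases with Znhit1 on the opposite strand, and reads there went to neither gene because counting did not use strand.

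As shares of the summed Plod level per exon length, Plod2 led in every library, with 62.0 ± 0.663% in fetal, 58.9 ± 0.298% in neonatal and 58.6 ± 2.84% in adult cells. Plod1 took 12.9 ± 0.721% in fetal, 19.3 ± 0.0718% in neonatal and 21.5 ± 1.73% in adult cells, while Plod3 went from 25.1 ± 1.02% over 21.8 ± 0.232% to 19.9 ± 1.13%. Across both enzyme families 18 share comparisons were tested by two-sided exact permutation over libraries. In 16 of these there was no overlap between ages, which gives an exact p = 0.1, the smallest that 3 against 3 libraries allow, so none could pass the threshold (lowest adjusted p = 0.112). The exceptions were P4ha2 between fetal and neonatal cells (exact p = 0.4) and Plod2 between neonatal and adult cells (exact p = 0.9).

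**Figure D2:**
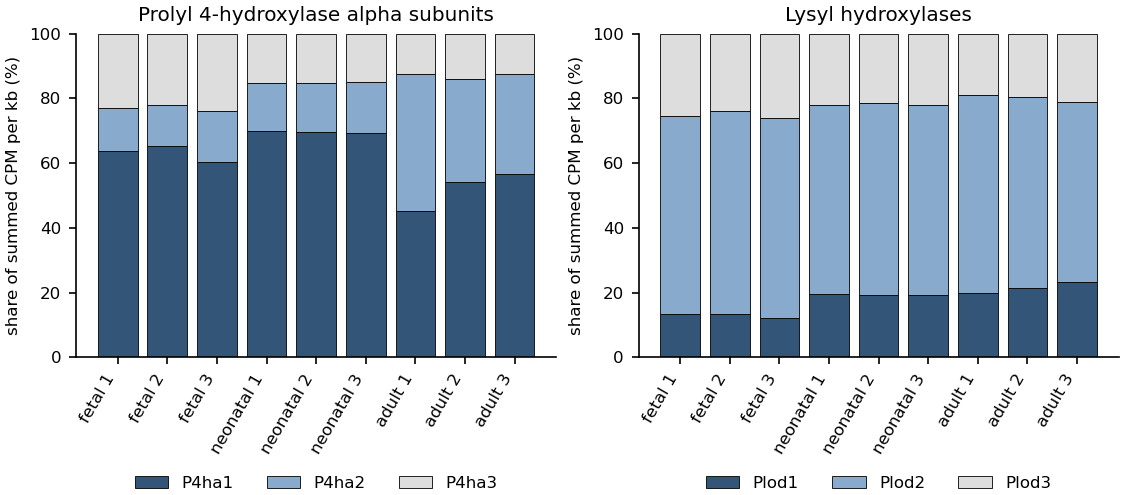
Stacked bars, 1 per library, of each isoform's share (%) in the summed CPM per kb of exon of its family, with the alpha subunits on the left and the lysyl hydroxylases on the right. The P4ha2 part of the adult bars is 42.4, 31.8 and 31.0%, larger than in any bar of the earlier ages, and Plod2 is the largest part of each bar on the right.

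Serpinh1 (chr1:164301010-164308307, minus strand), the chaperone specific for collagen, was the most abundant member per exon length at fetal and neonatal age and its fall in adult cells was larger than that of any other tested member. Its level was 4637, 4309 and 3239 CPM in the fetal libraries, 4269.6, 4421 and 4396 CPM in the neonatal libraries and 1886, 1985 and 2076 CPM in the adult libraries. Fetal and neonatal libraries overlapped, and all adult libraries were below all of them. The adult level was 0.454 times the neonatal one (log2 fold change -1.14, SE 0.13, edgeR adjusted p = 5.66e-05) and 0.488 times the fetal one (log2 fold change -1.03, SE 0.13, edgeR adjusted p = 7.16e-05). Neonatal and fetal cells differed by 0.10 on the log2 scale (SE 0.13, edgeR adjusted p = 0.554), and the step from neonatal to adult cells differed from the step before it by -1.24 (adjusted p = 0.00199). Per exon length Serpinh1 came first among the members in fetal and neonatal cells (2014 and 2163 CPM per kb), whereas in adult cells Pcolce was at 1177, Serpinh1 at 983 and P4hb at 868 CPM per kb.

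Crtap (chr8:122394451-122421455, minus strand) encodes the helper protein of the complex that 3-hydroxylates a single proline of the collagen helix, together with P3h1 and Ppib, and its loss causes brittle bones. It had 0 counts in all 3 fetal and all 3 adult libraries, and 0, 1 and 1 counts in the neonatal ones. In the libraries with 0 counts, the upper limit ran from 0.135 (fetal replicate 2) to 0.224 CPM (adult replicate 3). The annotation gives Crtap 6 exons that are 3 exons listed again downstream: widths of 142, 150 and 548 bases at 122394451, 122398276 and 122401651 recur at 122413597, 122417532 and 122420908. Reads that map to several places are left out by the default settings of the counting program. Of 201 genes whose exon widths repeat in this way, 181 (90.0%) had at most 3 counts in every library, against 4427 of all 17337 genes (25.5%). The values therefore do not give a Crtap level in any age, and the part of the repeated exons in them was not tested further.

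Pcolce (chr12:22153995-22160311, plus strand) encodes a glycoprotein that binds the C-propeptide and speeds its removal by Bmp1. It was at 1036, 999.9 and 521 CPM in the fetal libraries, 1786, 1814 and 1866 CPM in the neonatal libraries and 1793, 1745 and 1864 CPM in the adult libraries. All fetal libraries were below all later ones, fetal replicate 3 by most, and the neonatal and adult libraries overlapped. Pcolce was 2.14-fold higher in neonatal than in fetal cells (log2 fold change 1.10, SE 0.22, edgeR adjusted p = 0.00509) and 2.11-fold higher in adult than in fetal cells (log2 fold change 1.08, SE 0.22, edgeR adjusted p = 0.00166). Without fetal replicate 3 these differences were 0.84 and 0.82, each still called. The adult to neonatal difference was -0.017 on the log2 scale (SE 0.22, adjusted p = 0.950).

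Over all 9 tested members, 5 were called higher in neonatal than in fetal cells (P4ha1, P4ha2, Plod1, Plod2 and Pcolce), where 36.3% of all tested genes were called in either direction and 18.3% were higher. None was called lower by edgeR, where 18% of all genes were. At an unadjusted p under 0.05 the lower count was also 0, as it was by DESeq2 and limma voom. The count of 5 became 3 without any 1 neonatal library or without adult replicate 2, and without fetal replicate 3 P4ha3 was called lower. In adult against fetal cells 4 members were higher (P4ha2, Plod1, Plod2 and Pcolce) and 2 lower (P4ha3 and Serpinh1), beside 34.9% and 35.5% of all genes (70.5% either way). The higher count became 3 without any 1 neonatal or adult library, and without fetal replicate 3 P4ha1 was called lower too. In adult against neonatal cells 1 member was higher (P4ha2) and 3 lower (P4ha1, P4ha3 and Serpinh1), beside 31.6% and 31.8% (63.5% either way), and without fetal replicate 3 the lower count was 5.

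The median log2 fold change of the 9 members was 0.50 from fetal to neonatal cells, 0.15 from fetal to adult cells and -0.12 from neonatal to adult cells, while the medians of all tested genes were -0.0053, -0.013 and -0.0065. In each comparison 6 of 9 members had groups without overlap, beside 57.4% (neonatal and fetal), 71.8% (adult and fetal) and 76.1% (adult and neonatal) of all genes. The step from neonatal to adult cells was lower than the step from fetal to neonatal cells for 4 members (P4ha1, Plod1, Serpinh1 and Pcolce) and higher for 0 (0 at an unadjusted p under 0.05 too), beside 23% and 19.4% of all genes. That count was 7 without fetal replicate 3, adding P4ha3, Plod2 and Plod3, and 2 without any 1 neonatal library, losing Plod1 (adjusted p up to 0.0735) and Pcolce (up to 0.0994). Pcolce also lost this call without any 1 adult library. The 3 comparisons share libraries in pairs, so they do not stand as separate evidence for a member. In sum the 9 members took 1.01 ± 0.136% of assigned counts at the fetal, 1.14 ± 0.0164% at the neonatal and 0.886 ± 0.00907% at the adult age.

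**Figure D3:**
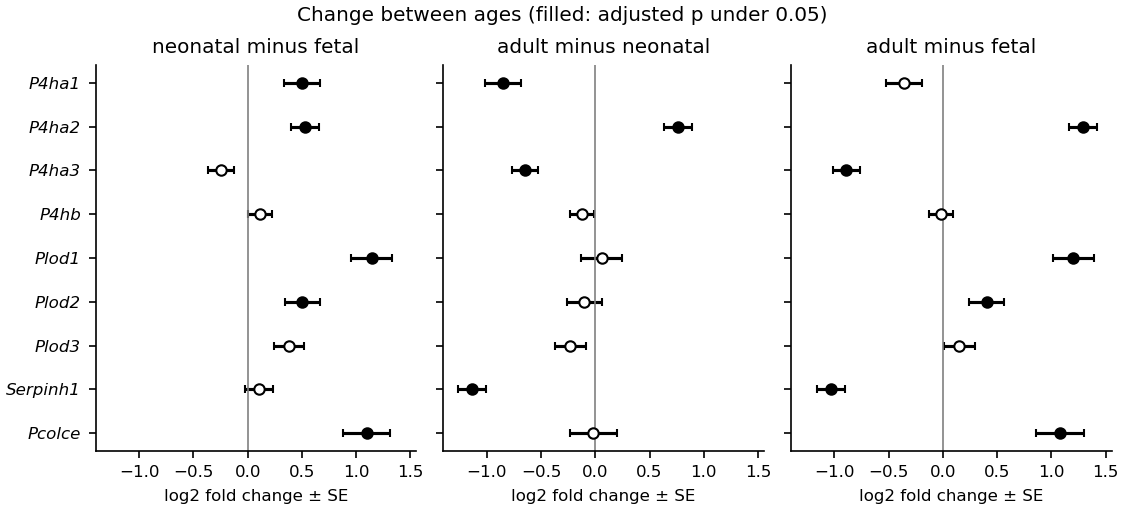
Log2 fold change ± SE of each tested member in the 3 comparisons of ages, with filled points where the edgeR adjusted p was under 0.05. P4ha2 lies right of 0 in each panel, while Serpinh1 and P4ha3 lie left of 0 in both comparisons with adult cells.

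Markers of other cells differed between the ages as well. The 10 fibroblast markers summed to 67927 to 74193 CPM in neonatal and 22236 to 29822 CPM in adult libraries, with Col1a1 the highest at each age. Most of each sum was Col1a1 and Col3a1, at means of 37796 and 30805 CPM in neonatal and 14965 and 9468 CPM in adult libraries. Both are also chains of the collagen level used below. Of 10 macrophage markers, all reached 1 CPM in adult cells, where they summed to 3564 to 5016 CPM against 6.54 to 50.8 CPM in fetal and 137 to 152 CPM in neonatal libraries, and Cd163 had at most 3 counts in every fetal and neonatal library. The 9 cardiomyocyte markers summed to 5699 to 7249.6 CPM in fetal, 3384 to 3706 CPM in neonatal and 304 to 318 CPM in adult libraries, with Myh6, Myh7, Myl2 and Csrp3 at or below 3 counts in the adult ones. The adult sum, 311.1 CPM in the mean, was almost all Tnnt2 (309.6 CPM), and only 1 of the 9 reached 1 CPM in an adult library. Markers of endothelial cells summed to at most 38.4 CPM in any library. Mural markers ran over 269 to 702 CPM in fetal, 1178 to 1238 CPM in neonatal and 189 to 350.2 CPM in adult libraries. Epicardial markers stayed between 14.0 and 62.0 CPM and cartilage markers between 5.09 and 134 CPM. The part of these cells in the members' differences was not tested, since the values come from whole flasks.

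The members were also set against the collagen they act on, as a description with no test. Each member's CPM per kb was divided by the summed CPM per kb of Col1a1, Col1a2 and Col3a1 in the same library, the chains of types I and III collagen. Col1a2 is another gene with repeated exon widths and had at most 21 counts in a library, so the sum is in effect that of Col1a1 and Col3a1. It was 4070 to 8994 CPM per kb in fetal, 12345 to 13489 in neonatal and 3751 to 5156 in adult libraries, and lowest of the fetal ones in replicate 3. The sum was highest in the neonatal libraries, and fetal replicate 3 lay within the adult range.

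Relative to that collagen level, the 9 members together stood at 54.8, 56.0 and 82.0% in the fetal, 44.0, 41.4 and 43.1% in the neonatal and 109, 84.6 and 79.7% in the adult libraries (64.3 ± 15.4%, 42.8 ± 1.35% and 91.1 ± 15.7%). Every adult value was above every neonatal one, and fetal replicate 3 overlapped the adult range. Pcolce was at 7.53, 7.69 and 8.37% of the collagen level in the fetal, 9.46, 8.79 and 9.38% in the neonatal and 31.2, 24.0 and 23.6% in the adult libraries, with all adult values far above the rest. Serpinh1 was at 25.6, 25.1 and 39.5% in the fetal, 17.1, 16.2 and 16.8% in the neonatal and 24.9, 20.7 and 20.0% in the adult libraries, where fetal values were highest and neonatal ones lowest. Set beside neonatal cells, adult Serpinh1 was thus lower in CPM and higher relative to collagen. P4ha2 was at 0.969 ± 0.349%, 0.707 ± 0.0274% and 3.54 ± 1.29% of the collagen level in fetal, neonatal and adult cells. For P4hb the same values were 13.2 ± 4.12%, 7.31 ± 0.251% and 19.5 ± 4.47%, and for Plod2 they were 3.90 ± 0.702%, 2.94 ± 0.0598% and 7.99 ± 1.89%. For P4hb, fetal replicate 3 (18.0%) lay within the adult range, while fetal replicates 1 and 2 were at 10.5 and 11.2%.

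The remaining members lay between 0.693 and 5.07% in the mean of each age. Plod1 was at 0.811 ± 0.0972%, 0.965 ± 0.0277% and 2.89 ± 0.323%, and Plod3 at 1.59 ± 0.336%, 1.09 ± 0.0379% and 2.67 ± 0.387%, of the collagen level in fetal, neonatal and adult cells. P4ha1 was at 4.29 ± 0.816%, 3.21 ± 0.132% and 5.07 ± 0.270%. P4ha3 was at 1.58 ± 0.423%, 0.693 ± 0.0311% and 1.28 ± 0.213%, the only member besides Serpinh1 with a higher fetal than adult mean. Its fetal libraries (1.32, 1.35 and 2.07%) overlapped the adult ones (1.48, 1.30 and 1.06%), and fetal replicate 3 raised the fetal mean. That library had the highest fetal value of every tested member on this scale. Plod1 and Pcolce were the only members whose fetal mean was below the neonatal one on this scale.

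**Figure D4:**
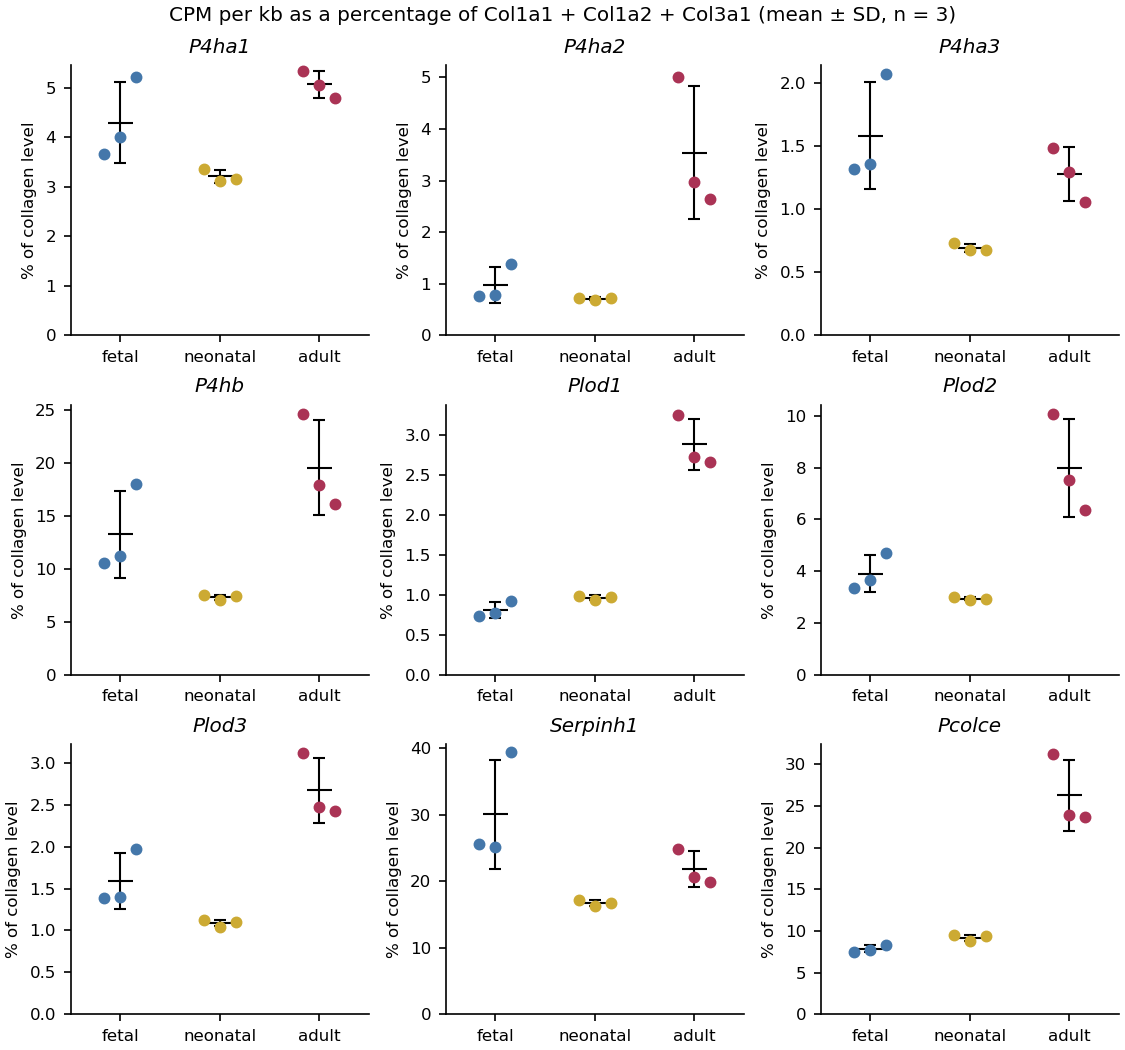
Level of each tested member as a percentage of the summed Col1a1, Col1a2 and Col3a1 level of the same library, both in CPM per kb of exon, by library and as mean ± SD (n = 3), on linear axes from 0. Pcolce reaches 31.2, 24.0 and 23.6% in adult cells, and Serpinh1 is highest in fetal replicate 3.

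Genes that work beside the members were read from lists of 1 pathway step each. Over all tested genes, 18.3% rose and 18% fell from fetal to neonatal cells, 31.6% rose and 31.8% fell from neonatal to adult cells, and 34.9% were higher and 35.5% lower in adult cells relative to fetal ones; the counts below stand beside these shares, and nothing particular to a list is read from them. Of 11 genes of prolyl 3-hydroxylation and collagen folding, 3 rose and none fell from fetal to neonatal cells, and 1 rose and 7 fell from neonatal to adult cells, with 3 higher and 4 lower in adult than in fetal cells. The list's median log2 fold changes were 0.14, -0.57 and -0.022. At an unadjusted p under 0.05, 1 gene fell from fetal to neonatal cells, and DESeq2 and limma voom called 0. With fetal replicate 3 left out, 4 rose and 1 fell over that step. Without that library 8 fell from neonatal to adult cells, and 6 were lower in adult cells relative to fetal ones. P3h2, a prolyl 3-hydroxylase, was at 28.2 ± 2.99 CPM in fetal, 23.2 ± 1.49 CPM in neonatal and 10.5 ± 1.28 CPM in adult libraries (adult minus neonatal log2 fold change -1.14, edgeR adjusted p = 3.97e-05). P3h4, a non-enzymatic partner of the lysyl hydroxylases, fell from neonatal to adult cells (log2 fold change -0.80, edgeR adjusted p = 0.000992), as did the peptidyl-prolyl isomerase Fkbp14 (log2 fold change -0.59, edgeR adjusted p = 0.000107). Ppib, the isomerase that binds Crtap and P3h1, went the other way, at 563 ± 22.1 CPM in fetal, 608 ± 10.1 CPM in neonatal and 781 ± 33.5 CPM in adult libraries (adult minus fetal log2 fold change 0.47, edgeR adjusted p = 0.000154).

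From fetal to neonatal cells the isomerase Fkbp9 (log2 fold change 0.81, edgeR adjusted p = 0.00369), the collagen-binding secreted protein Sparc (log2 fold change 0.97, edgeR adjusted p = 0.00876) and the hydroxylase P3h3 (log2 fold change 0.58, edgeR adjusted p = 0.0330, and 0.36 without fetal replicate 3) rose. Colgalt1, which adds galactose to the hydroxylysines that the Plod enzymes make, was the 1 tested gene of hydroxylysine glycosylation and was higher than in fetal cells at both later ages (log2 fold change 0.43, edgeR adjusted p = 0.0159 in neonatal, log2 fold change 0.34, edgeR adjusted p = 0.0215 in adult cells). It was lowest in fetal replicate 3 among the fetal libraries (235, 233 and 174 CPM), and without that library the differences were 0.31 and 0.21 (adjusted p = 0.00210 and 0.00842).

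Propeptide cleavage, the step that Pcolce enhances, had 5 tested genes. From fetal to neonatal cells 2 rose and 1 fell, from neonatal to adult cells 0 rose and 2 fell, and 2 were higher and 3 lower in adult cells relative to fetal ones, with medians of 0.64, -0.090 and -0.86. The count of 0 was by edgeR, and was also 0 at an unadjusted p under 0.05, by DESeq2 and by limma voom. It was 1 (Adamts2) without fetal replicate 3, and then 3 rose and 2 fell from fetal to neonatal cells. Bmp1, the protease whose cleavage of the C-propeptide Pcolce speeds, was at 164, 165 and 101.8 CPM in the fetal, 279.8, 285 and 290.1 CPM in the neonatal and 283, 315 and 292 CPM in the adult libraries. Like Pcolce it was low in all fetal libraries and lowest in fetal replicate 3, and it was called higher in neonatal (log2 fold change 0.99, edgeR adjusted p = 0.00179) and in adult (log2 fold change 1.05, edgeR adjusted p = 0.000276) than in fetal cells. Adamts2, the N-propeptide protease of type I collagen, rose as well (log2 fold change 1.34, edgeR adjusted p = 0.00276 in neonatal, log2 fold change 1.79, edgeR adjusted p = 0.000122 in adult against fetal cells). Its relative Adamts3 fell from fetal to neonatal cells (log2 fold change -1.85, edgeR adjusted p = 0.0137), and Adamts14 fell from neonatal to adult cells (log2 fold change -1.503, edgeR adjusted p = 0.00171). Tll1, a C-propeptide protease related to Bmp1, was at 175 ± 58.6 CPM in fetal, 123.0 ± 3.98 CPM in neonatal and 7.95 ± 2.57 CPM in adult libraries and fell from neonatal to adult cells (log2 fold change -3.95, edgeR adjusted p = 9.19e-06).

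Of 11 genes of procollagen export out of the endoplasmic reticulum, 1 rose and 1 fell from fetal to neonatal cells. The list held coat proteins and also other genes of this route, among them Klhl12, Creb3l1, Kdelr1, Kdelr2 and Kdelr3. The cargo receptors Mia3 and Mia2 were not matched and are not among the 11. From neonatal to adult cells 0 rose and 8 fell by edgeR, with 0 risen also at an unadjusted p under 0.05, by DESeq2 and by limma voom. When fetal replicate 3 was left out, 1 rose over that step and 3 fell over the one before. Further, 1 was higher and 8 lower (9 without fetal replicate 3) in adult cells relative to fetal ones, with medians of 0.071, -0.41 and -0.54. The coat subunit Sec23a was at 219.8 ± 29.4 CPM in fetal, 202 ± 3.95 CPM in neonatal and 69.6 ± 2.31 CPM in adult libraries (log2 fold change -1.54, edgeR adjusted p = 1.37e-06 from neonatal to adult cells). Its partner Sec24d (log2 fold change -1.13, edgeR adjusted p = 5.95e-06) and the collagen secretion transcription factor Creb3l1 (log2 fold change -0.82, edgeR adjusted p = 3.42e-06) fell over the same step, in which Serpinh1 fell too. From fetal to neonatal cells the coat subunit Sec13 (log2 fold change -0.23, edgeR adjusted p = 0.0162) and the exit-site organiser Tfg (log2 fold change 0.18, edgeR adjusted p = 0.0420) passed the test.

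The collagen chains themselves gave 10 tested genes, of which 2 rose and 2 fell from fetal to neonatal cells, 1 rose and 7 fell from neonatal to adult cells, and 1 was higher and 6 lower in adult than in fetal cells (medians 0.18, -1.38 and -0.77). In adult cells relative to fetal ones 0 were higher and 7 lower without fetal replicate 3, and 8 then fell from neonatal to adult cells. Col1a2, with repeated exon widths and at most 21 counts in a library, is among the 10 and in the medians, and was called in no comparison. Col27a1, a minor chain of cartilage and other tissues, was at 51.5 ± 2.43 CPM in fetal, 29.8 ± 1.99 CPM in neonatal and 6.98 ± 0.271 CPM in adult libraries and fell at each step (log2 fold change -0.79, edgeR adjusted p = 0.000146 from fetal to neonatal, log2 fold change -2.09, edgeR adjusted p = 1.42e-07 from neonatal to adult cells). Col5a3 rose from fetal to neonatal cells (log2 fold change 1.07, edgeR adjusted p = 0.00678). Col5a2 fell from neonatal to adult cells (log2 fold change -0.99, edgeR adjusted p = 2.64e-05), and Col11a1, a chain of thin fibrils, was lower in adult cells relative to fetal ones (log2 fold change -4.34, edgeR adjusted p = 2.49e-05). Col3a1 rose by 1.25 from fetal to neonatal cells (edgeR adjusted p = 0.00647), and Col5a1, a regulator of fibril diameter, was at 2123 ± 291 CPM in fetal, 2269.8 ± 123.3 CPM in neonatal and 849 ± 78.8 CPM in adult libraries (log2 fold change -1.42, edgeR adjusted p = 8.64e-06 from neonatal to adult cells). Of 5 tested genes of ascorbate uptake and collagen turnover, 2 rose and 1 fell from fetal to neonatal cells, and 3 rose and 1 fell both from neonatal to adult and from fetal to adult cells, with medians of -0.0021, 1.17 and 0.52. Without fetal replicate 3, 2 were lower in adult cells relative to fetal ones. The glucose and dehydroascorbate transporter Slc2a1 was at 103 ± 3.82 CPM in fetal, 65.7 ± 5.39 CPM in neonatal and 148 ± 21.2 CPM in adult libraries (log2 fold change -0.65, edgeR adjusted p = 0.00180 from fetal to neonatal, log2 fold change 1.17, edgeR adjusted p = 1.33e-05 from neonatal to adult cells). The protease Fap rose from fetal to neonatal cells (log2 fold change 1.00, edgeR adjusted p = 0.0267). The ascorbate transporter Slc23a2 was at 36.8 ± 2.52 CPM in fetal, 36.7 ± 0.699 CPM in neonatal and 122 ± 8.45 CPM in adult libraries (adult minus fetal log2 fold change 1.73, edgeR adjusted p = 9.72e-08), and Pepd, which releases proline and hydroxyproline from dipeptides, was at 26.0 ± 0.434 CPM in fetal, 33.3 ± 1.95 CPM in neonatal and 127 ± 15.5 CPM in adult libraries (adult minus fetal log2 fold change 2.29, edgeR adjusted p = 7.15e-08).

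P4ha1, P4ha2, Plod1 and Plod2 are known targets of the hypoxia-inducible factor, so 16 other tested genes of that response were read beside them. From fetal to neonatal cells 1 rose and 4 fell, from neonatal to adult cells 12 rose and 2 fell, and 11 were higher and 2 lower in adult cells relative to fetal ones, with medians of -0.16, 0.90 and 0.65. Without fetal replicate 3 these counts were, in the same order, 2 and 5, 13 and 2, and 12 and 2. The glycolytic enzyme Aldoa was at 723, 691 and 696 CPM in the fetal, 674, 672 and 675 CPM in the neonatal and 1325, 1380.1 and 1533 CPM in the adult libraries (adult minus fetal log2 fold change 1.01, edgeR adjusted p = 2.30e-06). The peptide hormone gene Adm was at 1030.5, 538 and 398 CPM in the adult libraries against a mean of 42.5 ± 10.7 CPM in fetal cells (adult minus fetal log2 fold change 3.95, edgeR adjusted p = 1.42e-05). Adult replicate 1 was the highest adult library for P4ha2 and the lowest for P4ha1. Of the list's genes named here, it was the highest for Adm, Ndrg1, Slc2a1 and Egln3, and the lowest for Aldoa, Ldha and Car9. Ndrg1, a stress-responsive gene, was at 17.3 ± 7.37 CPM in fetal, 13.7 ± 0.434 CPM in neonatal and 164 ± 23.2 CPM in adult libraries, and the lactate dehydrogenase gene Ldha rose from neonatal to adult cells (log2 fold change 0.80, edgeR adjusted p = 4.44e-06). The genes of the list that were lower in adult cells were Car9 and Egln3, Egln3 being named after its values were seen. Car9, a carbonic anhydrase, was at 63.6 ± 34.3 CPM in fetal, 15.3 ± 2.07 CPM in neonatal and 4.75 ± 1.52 CPM in adult libraries (adult minus fetal log2 fold change -3.74, edgeR adjusted p = 0.000138). Egln3, a prolyl hydroxylase that marks the factor for breakdown, was at 24.0 ± 3.48 CPM in fetal, 16.01 ± 1.57 CPM in neonatal and 2.76 ± 1.57 CPM in adult libraries (adult minus fetal log2 fold change -3.12, edgeR adjusted p = 3.55e-05). Of the 4 members, P4ha2 rose and P4ha1 fell from neonatal to adult cells, while Plod1 and Plod2 did not pass the test there. Relative to fetal cells, P4ha2, Plod1 and Plod2 were called higher in adult cells and P4ha1 was not called. Activity of the factor was not measured, and its part in these differences was not tested. Macrophage markers were also highest in adult libraries, and the part of such cells in the list's differences cannot be told apart from age.

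**Figure D5:**
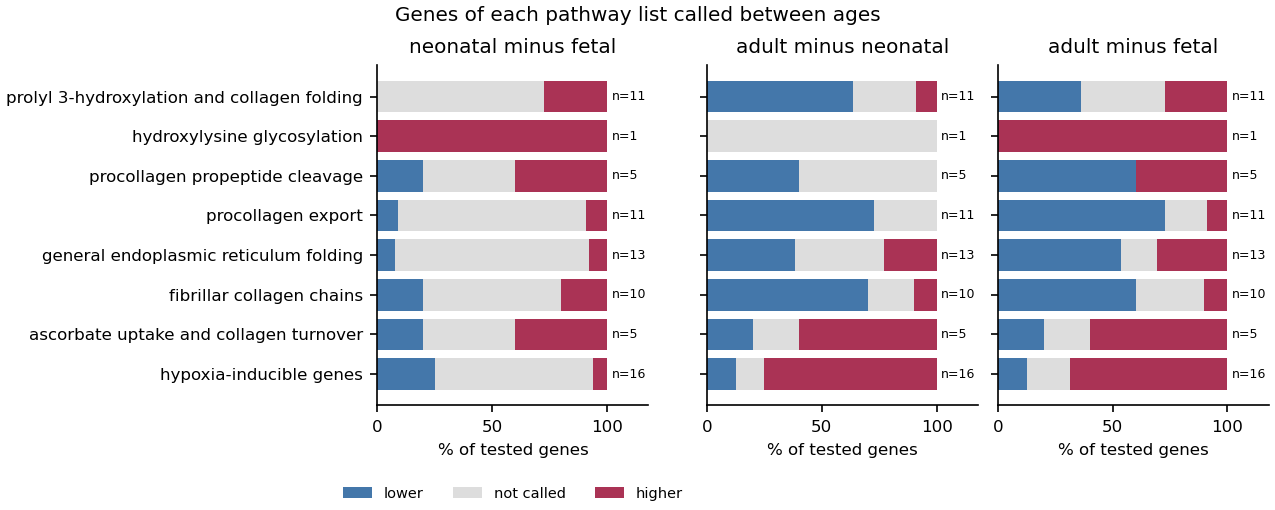
Percentage of the tested genes of each pathway list called lower (blue), not called (grey) or called higher (red) in the 3 comparisons of ages, with the number of tested genes at the end of each bar. From neonatal to adult cells 8 of 11 export genes were lower, and 12 of 16 hypoxia-inducible genes were higher. Of all tested genes 31.8% were lower and 31.6% higher over that step.

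The promoters shown above were searched for the hypoxia response core on both strands in the 250 bases upstream of all 10 members, each matched in RefSeq by symbol. The core occurred in 7 of 10 members and in 36.7% of 33469 rat promoters of that length. Both forms of the core contain the letters CG, and the members' windows were 56% (Pcolce) to 74.8% (Plod2) G or C. The share over all promoters was not matched for this, so no enrichment is read from these counts. P4ha2 held 5 matches, beginning 162, 146, 133, 124 and 41 bases upstream of the start. Plod2 had 4 matches and P4ha1 had 2, at 136 and 99 bases, while Plod1 (37 bases), Pcolce (43 bases), Plod3 and Crtap had 1 each. P4ha3, P4hb and Serpinh1 had none in this window.

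The unfolded protein response element TGACGTG, which contains the hypoxia core ACGTG, was in none of the members' windows and in 1.54% of all promoters. The endoplasmic reticulum stress element was in none and in 0.0657% of promoters. The heat shock pair GAANNTTC was in 4 members (P4hb, Plod1, Plod2 and Serpinh1) and in 7.23% of promoters, and in Serpinh1 it began 30 bases upstream of the start. This motif was added after the Serpinh1 sequence had been seen, so the Serpinh1 match was known beforehand and the count is not a test. A match describes letters only, and none of these data measured binding.

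Pairs of members differed in how alike their courses were over the 9 libraries, measured as the root-mean-square difference of log2 CPM after centring each gene on its mean. Plod1 and Pcolce were closest, at 0.069, followed by Plod2 and Plod3 at 0.13. Around its own mean Plod1 varied most over the libraries (0.62) and P4hb least (0.12) of the 9 members. The closest genes outside the members were sought among 8323 genes with a mean of at least 10 CPM, a number that still includes the tested members. For Serpinh1 the closest after Dvl3 (0.053) was Sec24d (0.066), which is on the export list. The closest gene to P4hb was Txndc5 (0.039), another protein disulfide isomerase, with Eif2ak2 next at 0.041. The closest to Pcolce was Ecm1 (0.054), a secreted matrix protein. Whether the closest genes share a function with the members was not tested.

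For the other members the closest genes outside the members were Atrn to P4ha1 (0.047), Scp2 to P4ha2 (0.053), Prep to P4ha3 (0.066), LOC100910973 to Plod1 (0.075), Mxd4 to Plod2 (0.042) and Swap70 to Plod3 (0.047). The second closest were Rcsd1, Palm, Sik3, Slc27a1, Fam3a and Marveld1 in the same order, Eif2ak2 for P4hb and LOC100910973 for Pcolce. These values describe the same 9 libraries, 3 per age, and share their depth and any difference between libraries.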

How the data were processed

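Gene counts were deposited for 9 libraries. The authors counted reads per gene using featureCounts 1.6.3 on an rn6 annotation, per the file headers, with default options: unstranded, and without reads mapped to several places. The submitters' processing notes name FastQC, Trimmomatic 0.39, STAR 2.5.2b, Subread 1.6.3 and DESeq2. A deposited table of normalized signal for 12786 genes equalled count divided by 1 factor per library (within 0.01%) and was not used further. Exon lengths are those of the count table.

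Genes kept by filterByExpr (11337) were fitted in edgeR 4.0.16 (R 4.3.3) with TMM scaling and robust quasi-likelihood models over all 9 libraries, with age as sole factor. Benjamini-Hochberg adjustment ran over all tested genes. CPM used TMM-scaled library totals, log2 CPM a prior count of 2, and levels between genes were divided by exon length in kb. Isoform shares were compared by exact permutation (Python 3.11.15, SciPy 1.17.1). The code was tested on simulated data. Chi-square per degree of freedom between replicates ran from 2.05 to 97.3, so no library appeared to be deposited again. Limits from a count of 0 cover counting error only, because the reads carry no molecular identifiers.

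The members, the pathway and marker lists and the tests were chosen with earlier results of these data known. Named were all 10 members, from each list up to 3 genes with the smallest adjusted p past 0.05 in each comparison, and for each member the 2 most alike genes. Listed symbols not matched in the table were Colgalt2, Pcolce2, Mia3, Mia2, Col24a1, Egln1, Ttn, Upk3b and Lrrn4, which were not analysed here. Markers of 8 cell types were read.

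The alternatives were DESeq2 1.42.0, its size factors in edgeR, library size alone, no filter, limma voom (limma 3.58.1), only the ages compared, a replicate block, each library left out, other collagen denominators, and levels not divided by exon length. Leaving fetal replicate 3 out of the list counts was added after seeing the data.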

Additional observations from a re-analysis of the deposited data

How the results depend on the processing

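Over the 3 comparisons and the step difference, 36 results of single members were recomputed under 567 alternatives: 509 kept direction and side of the threshold, 15 gained the call, 32 lost it and 11 changed sign. The calls for P4ha2 in all 3 comparisons, P4ha3 and Serpinh1 in both comparisons with adult cells, Plod1 and Pcolce against fetal cells and P4ha1 between neonatal and adult cells held in all 16 alternatives. Every sign change was of a value that was not called. From fetal to neonatal cells, P4hb became -0.052 and Serpinh1 -0.056 with library size alone, and -0.0043 and -0.035 without fetal replicate 3 (ranges over libraries left out -0.0043 to 0.17 and -0.035 to 0.21). From fetal to adult cells, P4hb became 0.032, 0.044, 0.0013 and 0.019 without fetal replicate 1, fetal replicate 2, adult replicate 2 and adult replicate 3 (range -0.13 to 0.044), and Plod3 -0.026 without fetal replicate 3 (range -0.026 to 0.25). From neonatal to adult cells, Pcolce became 0.043 with library size alone and 0.0033 without adult replicate 2 (range -0.044 to 0.0033). The cause was not tested.

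With each library left out, genes called from fetal to neonatal cells ranged from 2476 to 4679 (4114 with all), members called higher from 3 to 6 and lower from 0 to 1, members lower from neonatal to adult cells from 3 to 5, and members called for the step difference from 2 to 7. Members higher from fetal to neonatal cells numbered 3 with library size alone and with only the ages compared, and 1 was lower with library size alone. That scaling shifted the median of all genes by -0.17 from fetal to neonatal and by -0.11 from fetal to adult cells, and 29.0% of genes called in the former were then higher, against 50.4%. The Plod2 share between neonatal and adult cells (-0.249 percentage points) ranged from -1.55 to 1.26, the latter without adult replicate 3. Undivided by exon length, the members' summed level per collagen was 26.1% in fetal, 17.5% in neonatal and 37.4% in adult cells, and the neonatal value was 38.9% with all fibrillar chains as denominator.

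Same-numbered libraries deviated from their group means with correlations of -0.0649 to 0.0521, so the numbers were not treated as pairs, and 7 of 18 comparisons of a library with another age gave its own number as the best match. With the replicate number as a block, 3713, 7801 and 6985 genes were called (neonatal to fetal, adult to fetal, adult to neonatal), and members higher in neonatal than in fetal cells were 4, P4ha1 having an edgeR adjusted p of 0.0544. The block left the other counts of members called as they were.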

Other observations

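General folding factors of the endoplasmic reticulum, which serve all secreted proteins and not collagen alone, had calls in both directions. Of 13 tested genes, 1 rose and 1 fell from fetal to neonatal cells, 3 rose and 5 fell from neonatal to adult cells, and 4 were higher and 7 lower in adult cells relative to fetal ones, with medians of -0.091, -0.14 and -0.23. Of all tested genes 36.3%, 63.5% and 70.5% were called in these comparisons in either direction. Without fetal replicate 3, 2 rose and 3 fell from fetal to neonatal cells, and 4 rose and 7 fell from neonatal to adult cells. In adult cells relative to fetal ones 8 were then lower. The lectin chaperone Canx was at 1256 ± 42.7 CPM in fetal, 1179 ± 14.9 CPM in neonatal and 904 ± 25.9 CPM in adult libraries (adult minus fetal log2 fold change -0.47, edgeR adjusted p = 0.000151), and the oxidase Ero1b fell from neonatal to adult cells (log2 fold change -1.03, edgeR adjusted p = 0.00130). Sdf2l1, a stress-inducible partner of the luminal chaperone Hspa5, was at 25.3 ± 2.01 CPM in fetal, 17.6 ± 0.621 CPM in neonatal and 65.5 ± 4.87 CPM in adult libraries (adult minus fetal log2 fold change 1.37, edgeR adjusted p = 8.69e-07), and Pdia5, a disulfide isomerase like P4hb, was at 37.9 ± 3.03 CPM in fetal, 48.4 ± 3.14 CPM in neonatal and 68.0 ± 8.08 CPM in adult libraries (adult minus fetal log2 fold change 0.84, edgeR adjusted p = 6.06e-05). P4hb itself did not pass the test in any comparison.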
